A study of Mus musculus with 4 samples.

Results

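The resident macrophage genes described here were 10 genes chosen by name, namely Mrc1, Cd163, Lyve1, F13a1, Folr2, Timd4, Clec10a, Cbr2, Gas6 and Maf, out of 32290 features in single-cell RNA sequencing tables from mouse adipose tissue (AT). They were followed in macrophages, taken as cells with at least 3 UMIs (unique molecular identifiers, 1 per captured RNA molecule) of C1qa, C1qb and C1qc together. This C1q gate held 66 of 4119 kept cells. The study had 4 libraries in 4 groups, with 1 library per group, and asked what loss of telomerase in endothelium does to AT. WT mice were Tie2e-cre; TERT+/+; mTmG and KO (EC-Tert-KO) mice were Tie2e-cre; TERTfl/fl; mTmG, so the Cre and the reporter were carried by both. All were male, 7 months old and had 5 months of high-fat diet. Subcutaneous (SC) and visceral intraperitoneal (IP) tissue were sampled, and the number of mice in a library is not given. Tie2 regulatory sequence drives the Cre, and Tie2 can also be active in blood cells and their precursors. Because each group was 1 library, KO and WT were compared as 2 libraries without a test, and every interval below is a 95% interval that covers counting error only.

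Macrophages that settle in a tissue for long periods carry a recognisable set of surface receptors and secreted factors, and in fat many of them lie along vessels. Mrc1 (CD206, a mannose receptor), Cd163 (the haemoglobin-haptoglobin scavenger receptor), Clec10a (a galactose-type lectin), Lyve1 (a hyaluronan receptor), Folr2 (a folate receptor) and Timd4 (a receptor for phosphatidylserine on dying cells) sit on the cell surface. F13a1 encodes a coagulation transglutaminase subunit, Gas6 a secreted ligand of the receptors Tyro3, Axl and Mertk, Cbr2 a carbonyl reductase, and Maf a transcription factor of macrophages and of some lymphocytes. Lyve1 is also a standard marker of lymphatic endothelium. All 10 are protein-coding genes whose identifiers matched the GENCODE M21 annotation of GRCm38. Mrc1 lies at chr2:14229392-14332057, Cd163 at chr6:124304656-124330527, F13a1 at chr13:36867178-37050244 and Timd4 at chr11:46810800-46844332. Chromosome 7 holds Lyve1 (chr7:110850607-110863239) and Folr2 (chr7:101839988-101857194), chromosome 8 holds Gas6 (chr8:13465374-13494490) and Maf (chr8:115682942-115707794), and chromosome 11 also holds Clec10a (chr11:70156197-70170834) and Cbr2 (chr11:120729489-120732114).

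The gate was almost entirely an IP population. It held 53 WT IP cells, which was 7.88% of the kept cells of that library (5.95 to 10.2%), and 10 KO IP cells, which was 1.93% (0.931 to 3.53%). WT SC had 0 such cells among 969, which allows a share of up to 0.38%, and KO SC had 3 among 1960. Of those 3, 2 had barcodes that WT IP also held. KO SC and WT IP shared 93 barcodes, and the KO SC copies had a median of 601 UMIs, or 1.71% of the UMIs of the WT IP copy. Without them KO SC had 1 gate cell, and all 10 genes together could not be described in SC macrophages. The gate cells all lay in 1 macrophage-like cluster, found with the 10 genes and C1q left out of the clustering. That cluster held 127 WT IP, 47 KO IP, 23 WT SC and, without shared barcodes, 11 KO SC cells, so the gate took 41.7% of its WT IP cells (33.1 to 50.8%) and 21.3% of its KO IP cells (10.7 to 35.7%).

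The gate cells had macrophage RNA. Lyz2 (lysozyme) was present in 52 of 53 WT and 10 of 10 KO cells, Csf1r (the CSF1 receptor) in 48 and 9, and Cd68 in 45 and 9. Fcgr1 was seen in 28 and 5 cells and Mertk in only 7 and 5. Most gate cells also had RNA of some monocyte markers, with at least 3 UMIs summed over 10 such markers in 50 WT and 9 KO cells. All 10 were detected in WT but 5 in KO, where Ly6c2, Vcan, F10, Ace and Spn were at 0. In WT, Ly6c2 and Vcan had 8 and 13 UMIs, so their absence from the smaller KO sum says little. Ccr2, among those markers, was seen in 46 WT and 6 KO cells. The defining T cell genes Cd3d, Cd3e and Cd3g and the B cell genes Cd79a and Ms4a1 were at 0 in both libraries. The WT and KO IP gate cells had medians of 17658 and 15717 UMIs and of 31 and 74.5 C1q UMIs, the sum on which they were gated. Relative to all UMIs, C1qa and C1qc were higher in KO, by log2 ratios of 1.05 (0.88 to 1.22) and 1.04 (0.81 to 1.25). C1qb was close to equal, at 0.16 (-0.008 to 0.31). Haemoglobin RNA also differed, with 14323 UMIs in WT and 23 in KO, and 14167 of the WT UMIs lay in 1 cell, where they made up 35.7% of its RNA. Its part in the results was not tested.

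Mrc1 was the member found in the most gate cells. A WT IP cell held between 0 and 95 Mrc1 UMIs with a median of 6, and a KO IP cell between 1 and 58 with a median of 9. At least 1 UMI was seen in 44 of 53 WT cells and in all 10 KO cells. F13a1 ran from 0 to 116 UMIs with a median of 3 in WT and from 0 to 50 with a median of 5 in KO, and was seen in 35 of 53 and 8 of 10 cells. Clec10a ran from 0 to 34 with a median of 2 in WT and from 0 to 6 with a median of 0.5 in KO, and was seen in 39 of 53 and 5 of 10. Maf ran from 0 to 10 in WT, where 25 of 53 cells had it, and from 0 to 22 in KO, where 6 of 10 had it. The ranges of the 2 libraries overlapped for each of these 4 genes. With every cell thinned to 2000 UMIs, which left out 1 shallower cell per library, the shares were 53.8% and 66.7% for Mrc1, 32.7% and 55.6% for F13a1, 38.5% and 33.3% for Clec10a, and 11.5% and 66.7% for Maf in WT and KO. Of these only the Maf intervals, 4.35 to 23.4% in WT and 29.9 to 92.5% in KO, did not overlap. The share of all genes with such intervals is not given here, so this does not set Maf apart from other genes.

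The other members were confined to few gate cells. Folr2 was seen in 9 WT cells and 1 KO cell, Cbr2 in 5 and 3, Gas6 in 6 and 2, and Cd163 in 10 and 3 with at most 2 UMIs in a cell. Lyve1 was seen in 1 WT cell and no KO cell, where 0 of 10 cells allows a share of up to 30.9%. Timd4 had no UMI in the gate of either library, which puts its level under 3.16 CPM (the gene's UMIs per 1000000 UMIs of the summed cells) in WT and 20.3 CPM in KO at a floor of 3 counts. The 3 Timd4 UMIs of the IP libraries lay in macrophage-like cells outside the gate.

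**Figure D1:**
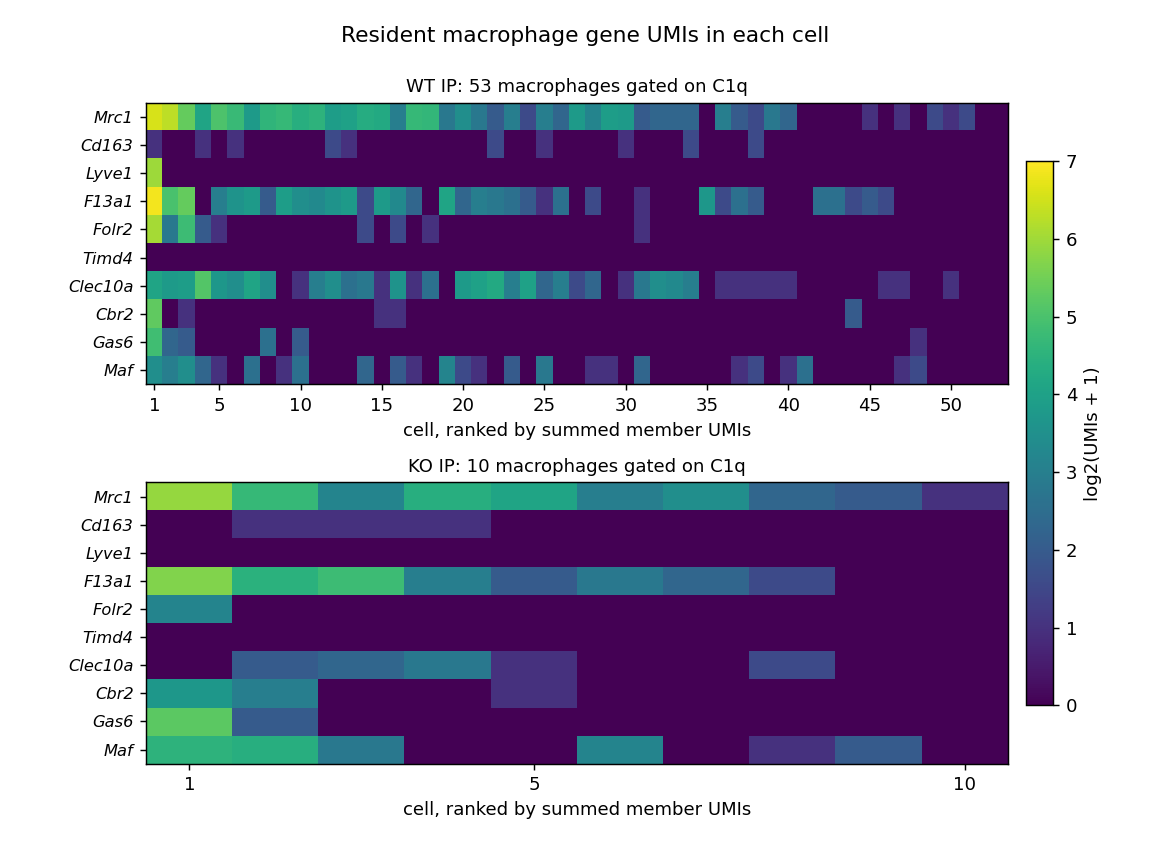
Each column is 1 macrophage gated on C1q and each row 1 resident macrophage gene, with colour giving log2(UMIs + 1), WT IP above (53 cells) and KO IP below (10 cells). Mrc1, F13a1 and Clec10a run across most WT columns, while Lyve1, Cbr2, Folr2 and Gas6 are concentrated in the leading columns.

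One cell in each library carried much of the set. The leading WT IP cell, with 32684 UMIs and 488 C1q UMIs, held 431 UMIs of the members, or 25.3% of the member UMIs in that library's gate. It held all 62 Lyve1 UMIs, 65 of 108 Folr2, 38 of 44 Cbr2, 28 of 44 Gas6 and 116 of 395 F13a1, and it was the 1 cell with 9 of the 10 members detected. The lymphatic genes Prox1, Flt4, Mmrn1, Reln and Ccl21a were all at 0 in it, and it held 175 UMIs of Selenop and 115 of Pf4, both common in resident macrophages. The leading KO IP cell, with 26804 UMIs and 238 C1q UMIs, held 187 member UMIs, or 44.6% of its library's. It carried 37 of 40 Gas6 UMIs, all 8 Folr2 and 12 of 20 Cbr2, and no Clec10a. It held 225 UMIs of Selenop but 1 of Pf4. H2-Aa, a class II antigen presentation gene seen in 50 WT and 8 KO gate cells, was low in both leading cells. The leading WT cell held 1 UMI of H2-Aa and the leading KO cell none. WT cells 2 and 3 held 116 and 230, and KO cells 2 and 3 held 122 and 158.

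The share of gate cells with several members was higher in KO than in WT at 2000 UMIs per cell, but close to equal at full depth. At 2000 UMIs per cell, 8 of 52 WT cells (15.4%, 6.88 to 28.1%) and 5 of 9 KO cells (55.6%, 21.2 to 86.3%) had at least 3 members, a difference of 40.2 percentage points (3.55 to 72.1). All 9 KO cells had at least 1 member against 39 of 52 WT cells (75.0%). At least 5 members were seen in 2 of 52 WT and 0 of 9 KO cells. Without thinning, 66.0% of the 53 WT cells and 70.0% of the 10 KO cells had at least 3 members, a difference of 3.96 percentage points, and the median cell had 3 members in WT and 4 in KO. In macrophage-like cells outside the gate, 2 of 71 WT and 2 of 33 KO cells had at least 3 members.

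Cells with Folr2 also held most of the common members. All 9 WT cells with Folr2 also had Mrc1 and Clec10a at full depth, 8 had Maf and 7 had F13a1, against 35, 30, 17 and 28 of the 44 cells without Folr2. All 5 WT cells with Cbr2 had F13a1, and 3 of them had Folr2. In KO, the 2 cells with Gas6 both had Cbr2, Mrc1, F13a1 and Maf. Cells with more UMIs detect more genes, so at 2000 UMIs the comparison was smaller: the 3 WT cells with Folr2 all had Mrc1 and F13a1, against 25 and 14 of the other 49, 2 had Maf, against 4, and 1 had Clec10a, against 19. Clec10a was seen in 14 of the 28 WT cells with Mrc1 (30.7 to 69.4%) and 6 of the 24 without (9.77 to 46.7%), and F13a1 in 35.7% and 29.2%, so the intervals overlapped for both.

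Inside the macrophage-like cluster the members separated by whether a cell passed the C1q gate. Mrc1 was at 684 CPM in WT gate cells and 195 CPM in WT macrophage-like cells outside the gate, a log2 ratio of 1.81 (1.57 to 2.05), and at 1027 and 262 CPM in KO, a log2 ratio of 1.97 (1.62 to 2.33). F13a1 was likewise higher in the gate, by 1.15 on the log2 scale in WT (0.90 to 1.42) and 2.20 in KO (1.79 to 2.63). Folr2 and Cbr2 had no UMI in the 74 WT and 37 KO macrophage-like cells outside the gate, and Gas6 had 0 and 1. Clec10a differed from that pattern, at 314 CPM in and 255 CPM outside the gate in WT (log2 ratio 0.30, 0.05 to 0.55) but 108 and 371 CPM in KO, a log2 ratio of -1.74 (-2.62 to -1.04). Cd163 was at 14.8 and 14.5 CPM in WT.

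Among WT macrophage-like cells, the 25 cells with 50 or more C1q UMIs held all 108 Folr2 UMIs and 41 of the 44 Cbr2 UMIs. Mrc1 was at 860 CPM in those 25 cells, 599 CPM in the 11 cells with 10 to 49 C1q UMIs, 364 CPM in the 17 cells with 3 to 9, and 193 CPM in the 69 cells with none. F13a1 and Clec10a followed no such order. The median depth was 19173, 18828, 10175 and 13688 UMIs in these 4 sets of cells.

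**Figure D2:**
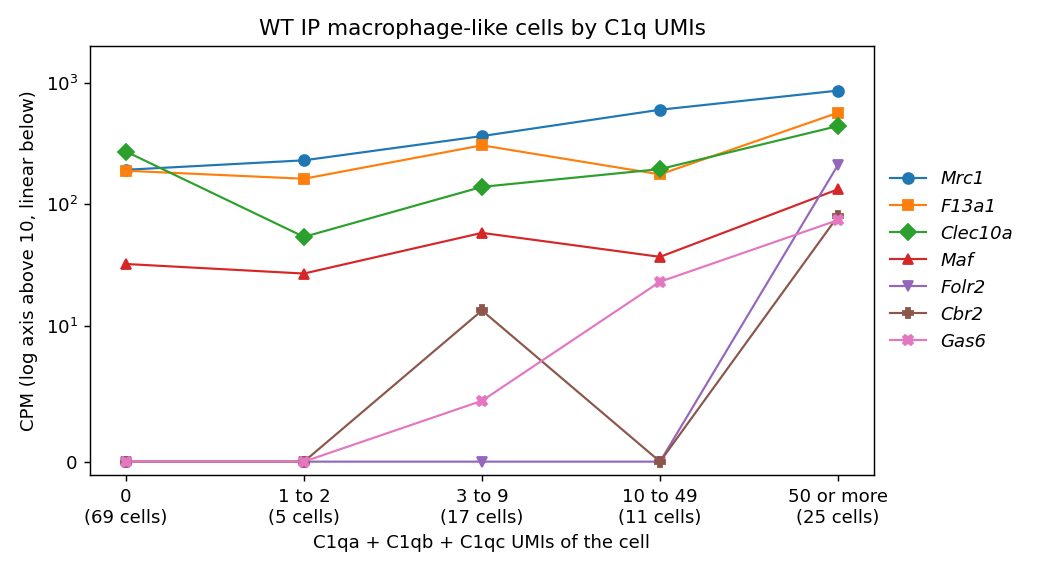
Level in CPM of 7 members in WT IP macrophage-like cells, grouped by the C1q UMIs of the cell (number of cells in brackets), without error bars because the sums of some groups rest on single cells. Mrc1 reaches 860 CPM and Folr2 is above 0 only in the group of 25 cells with 50 or more C1q UMIs.

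Sequences upstream of 4 members with different patterns are printed here because, within the macrophage-like cluster, Folr2, Cbr2 and Gas6 were nearly absent outside the gate while Mrc1 was not. Each runs from 250 bases before to 50 bases after the transcript start given by RefSeq on GRCm38.p6, 5′ to 3′ on the gene's strand, and capitals mark TGCTGA, the core that MAF proteins bind, or GAGGAA, a core bound by PU.1 (Spi1), on either strand, where they read TCAGCA and TTCCTC on the other. The letters do not overlap between the 2 motifs in these windows.
Mrc1 (chr2:14229164-14229463, + strand): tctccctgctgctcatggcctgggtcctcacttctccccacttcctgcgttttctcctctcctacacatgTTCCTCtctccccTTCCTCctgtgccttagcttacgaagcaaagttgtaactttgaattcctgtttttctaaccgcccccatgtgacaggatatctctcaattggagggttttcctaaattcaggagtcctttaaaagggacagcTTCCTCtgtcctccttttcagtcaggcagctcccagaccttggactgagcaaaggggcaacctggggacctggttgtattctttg
Folr2, upstream start (chr7:101857141-101857440, - strand): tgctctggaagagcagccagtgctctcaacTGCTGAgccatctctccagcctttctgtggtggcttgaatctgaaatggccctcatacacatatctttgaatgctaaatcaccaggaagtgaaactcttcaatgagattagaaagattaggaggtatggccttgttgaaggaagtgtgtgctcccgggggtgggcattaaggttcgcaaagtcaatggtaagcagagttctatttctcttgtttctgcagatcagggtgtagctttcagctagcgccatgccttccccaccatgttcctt
Folr2, downstream start (chr7:101845282-101845581, - strand): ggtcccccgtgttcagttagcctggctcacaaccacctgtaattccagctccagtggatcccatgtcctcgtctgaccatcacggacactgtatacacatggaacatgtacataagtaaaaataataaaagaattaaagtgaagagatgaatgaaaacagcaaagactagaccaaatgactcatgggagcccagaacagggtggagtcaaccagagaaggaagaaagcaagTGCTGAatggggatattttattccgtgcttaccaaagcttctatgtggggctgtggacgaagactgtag
Cbr2 (chr11:120731972-120732271, - strand): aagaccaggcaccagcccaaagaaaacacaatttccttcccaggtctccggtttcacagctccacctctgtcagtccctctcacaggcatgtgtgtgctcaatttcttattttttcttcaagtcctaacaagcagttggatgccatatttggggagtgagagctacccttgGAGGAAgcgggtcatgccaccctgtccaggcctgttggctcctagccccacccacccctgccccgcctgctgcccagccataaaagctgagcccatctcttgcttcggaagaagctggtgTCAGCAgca
Gas6 (chr8:13494486-13494785, - strand): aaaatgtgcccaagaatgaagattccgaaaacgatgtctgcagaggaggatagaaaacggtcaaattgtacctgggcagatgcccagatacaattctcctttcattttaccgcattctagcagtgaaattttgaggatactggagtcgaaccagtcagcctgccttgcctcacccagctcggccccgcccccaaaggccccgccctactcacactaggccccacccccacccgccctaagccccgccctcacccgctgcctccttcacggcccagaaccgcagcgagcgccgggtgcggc

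Both Folr2 windows and the Cbr2 window held TGCTGA, the Mrc1 window held GAGGAA 3 times, and the Gas6 window held neither. Of 32851 promoter windows of that length, 19.5% held TGCTGA and 28.3% held GAGGAA. Windows of 7 of the 10 members were matched, and those of Lyve1, Clec10a and Maf were not used here. Of the 7, 3 (Cbr2, Folr2 and Timd4) held TGCTGA and 3 (Cbr2, F13a1 and Mrc1) held GAGGAA. A match of these letters is a description and not a binding site.

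KO and WT IP gate cells were then compared gene by gene, for the 8 members with at least 20 UMIs over both libraries. Maf, Gas6 and Cbr2 were at least 2-fold higher in KO and Clec10a and Lyve1 at least 2-fold lower. Over all 5952 genes compared, 12.5% were at least 2-fold higher and 11.5% at least 2-fold lower in KO, so differences of this size were common between a sum over 10 cells and a sum over 53. The members' median log2 ratio was 0.78, also with Lyve1 at its lower bound, against 0.021 for all genes.

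Maf was at 93.8 CPM in WT (75.4 to 116) against 405 CPM in KO (309 to 522), a log2 ratio of 2.12 (1.61 to 2.6). It stayed past 2-fold in each choice of cells that was tried. Without the leading cell of each library it was 1.87 (1.26 to 2.44), and over all macrophage-like cells 1.35 (0.94 to 1.74). In macrophage-like cells outside the gate, which share no cell with it, it was 1.32 (0.60 to 2.06). There 16 of 74 WT and 9 of 37 KO cells had Maf, and 1 cell held 19.35% of the WT UMIs and 1 held 32.4% of the KO UMIs. In most other IP cell classes Maf was also higher in KO. In the cluster led by Nts and Mmrn1 it was at 410 CPM (340.5 to 490) in 18 WT cells. In 7 KO cells of that cluster it was at 1235 CPM (1007 to 1499), with 68.6% of the UMIs in 1 cell. An unnamed cluster led by cell-cycle genes had 36.3 CPM (20.8 to 59.0) in 14 WT cells and 175 CPM (116.5 to 253) in 3 KO cells. Among adipose stromal cell (ASC)-like cells Maf was at 237 CPM (225 to 249.5) in WT and 308 CPM (291 to 325) in KO. In T cell-like cells it was at 205 and 266 CPM, where the intervals overlapped. It was lower in KO in mesothelial-like cells, at 532 CPM in 5 WT cells and 267 CPM in 32 KO cells. There 1 WT cell held 81.2% of the WT UMIs. Maf was at 197 and 166 CPM in an unnamed cluster led by Ifng and Ccl5. In mural-like cells it was at 165 and 148 CPM, and in B cell-like cells at 12.9 and 10.3 CPM. The intervals overlapped in the Ifng and Ccl5 cluster and in mural-like and B cell-like cells. They did not in mesothelial-like cells (414 to 673 in WT and 242 to 293 in KO). No test of whether the macrophages differed more than those cells was made.

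Gas6 was at 46.4 CPM in WT against 270 CPM in KO, a log2 ratio of 2.54 (1.89 to 3.19). With the leading cells left out, 16 UMIs remained in WT and 3 in KO, at 17.5 and 24.8 CPM, so the KO level came from 1 cell. Cbr2 was at 46.4 and 135 CPM, a log2 ratio of 1.56 (0.70 to 2.34). With the leading cells left out, 6 and 8 UMIs remained in WT and KO, at 6.55 and 66.0 CPM. The log2 ratio there was 3.3 (1.6 to 5.1), from fewer UMIs than the minimum set for a comparison. Of the 8 KO UMIs, 7 lay in 1 cell. With each cell of the full gate weighted alike the Cbr2 log2 ratio was 0.28. The ASC markers summed to 75.9 CPM in WT gate cells and 135 CPM in KO gate cells. The KO cell with 37 Gas6 UMIs held none of their UMIs and the WT cell with 28 Gas6 UMIs held 4. Gate cells with ASC marker UMIs held 40 of the 44 WT Gas6 UMIs and 3 of the 40 in KO. Whether stromal RNA added to Gas6 was not tested.

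Clec10a was at 314 CPM in WT (280 to 352) against 108 CPM in KO (61.8 to 176), a log2 ratio of -1.50 (-2.37 to -0.82). It stayed lower without the leading cells, at -1.18 (-2.05 to -0.50). Over all macrophage-like cells the ratio was 0.11 (-0.14 to 0.35), and outside the gate Clec10a was higher in KO, at 371 against 255 CPM and a log2 ratio of 0.54 (0.25 to 0.82). Of the 25-base words in the last 500 bases of Clec10a transcripts, 25.5% also occurred in another gene. Over whole transcripts its paralogue Mgl2 shared the most words. Reads could be dropped or moved between the 2, and whether this happened was not tested. Mgl2 itself was at 161 CPM in WT and 527 CPM in KO gate cells, a log2 ratio of 1.71 (1.30 to 2.11).

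Mrc1 and F13a1 were somewhat higher in KO gate cells, by log2 ratios of 0.59 (0.32 to 0.84) and 0.97 (0.65 to 1.26). Without the leading cells these were 0.37 (0.03 to 0.68) and 0.93 (0.52 to 1.31), and over all macrophage-like cells 0.04 (-0.17 to 0.23) and 0.14 (-0.11 to 0.37). Folr2 was at 114 CPM in WT against 54.1 CPM in KO, a log2 ratio of -0.99 (-2.32 to -0.045), and without the leading cells KO had no Folr2 UMI. Lyve1, with no UMI in KO, was at least 3.22-fold lower against a floor of 3 counts, a difference that came from 1 WT cell. Cd163, with 14 UMIs in WT and 3 in KO, was not compared.

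The choice of cells set the count of members at or past 2-fold. Without the leading cells, 1 of 5 members compared (Maf) was higher and 2 (Folr2 and Clec10a) lower, where 11.9% and 12.5% of all genes were, and the members' median was 0.37. Folr2 had no KO UMI there, and against a floor of 3 counts it was at least 1.90-fold lower, which leaves Clec10a as the 1 member lower by 2-fold or more. Over all 127 WT and 47 KO macrophage-like cells, 2 of 9 (Gas6 and Maf) were higher and 2 (Lyve1 and Folr2) lower, where 5.79% and 5.08% of all genes were, and the median was 0.11. A gate on Adgre1, Csf1r and Cd68 in place of C1q turned the median to -1.19. That gate took 55 KO cells, of which 35 were macrophage-like and 14 mesothelial-like, and kept to the macrophage-like cluster it gave a median of 0.21.

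**Figure D3:**
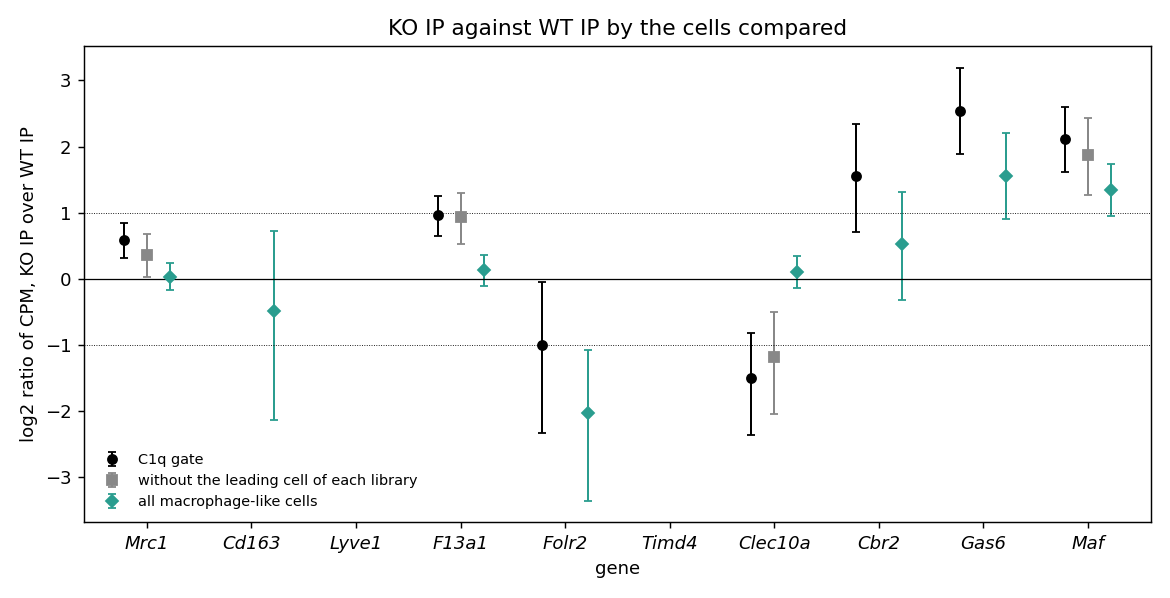
Log2 ratio of CPM, KO IP over WT IP, for members with at least 20 UMIs over both libraries and at least 1 in KO, in C1q gate cells (circles), without the leading cell of each library (squares) and in all macrophage-like cells (diamonds), with 95% counting intervals and dotted lines at 2-fold. Maf lies above 1 in all 3 choices of cells, while Clec10a goes from -1.50 in the gate to 0.11 in all macrophage-like cells.

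**Figure D4:**
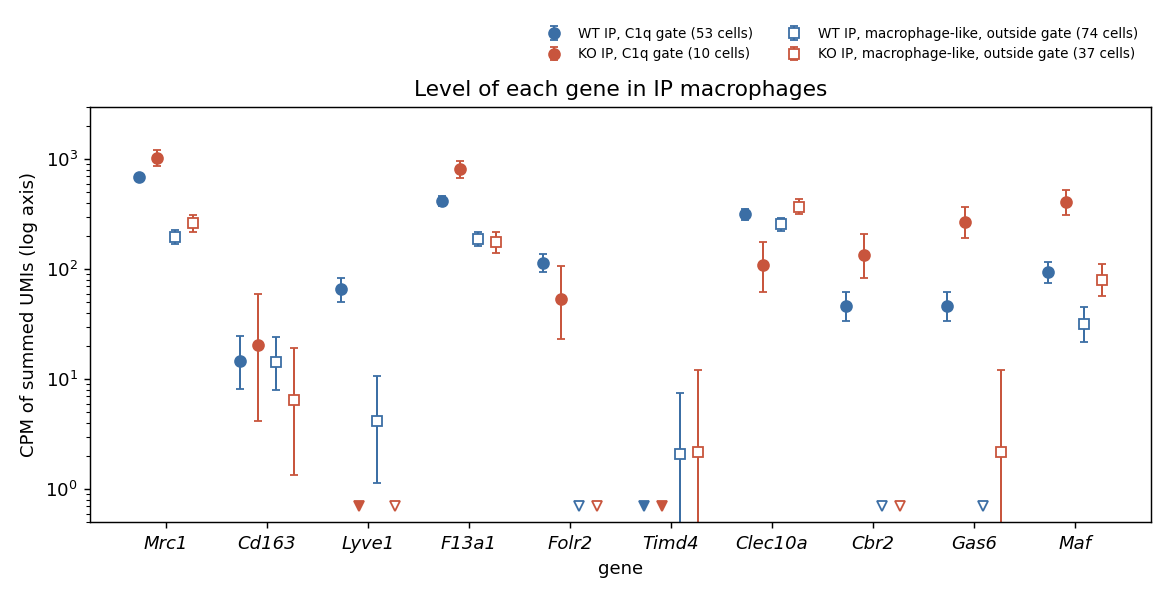
Level of each member in IP macrophages in CPM (log axis) with exact 95% Poisson intervals, for C1q gate cells (filled) and macrophage-like cells outside the gate (open) of WT (blue) and KO (red), with triangles at the lower edge for 0 UMIs. Mrc1 and F13a1 are higher in the gate in both libraries, and Clec10a in KO is lower in the gate than outside it.

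Outside macrophages the members fell into 2 kinds. Folr2, Cbr2, F13a1, Clec10a, Cd163 and Mrc1 were largely macrophage RNA, with 96.7% of the Folr2 UMIs and 90.1% of the Cbr2 UMIs of kept IP cells in the gate. For F13a1 the gate held 65.9% and macrophage-like cells outside it 33.6%, for Mrc1 68.5% and 26.5%, for Clec10a 41.9% and 55.8%, and for Cd163 they held 17 UMIs each. T cell-like cells of WT IP, with a median of 7422 UMIs, had no UMI of Mrc1, F13a1 or Clec10a in 48 cells, and those of KO IP had 1 F13a1 UMI in 52 cells, so free RNA of these genes was near 0. Cbr2 also had 6 UMIs in 1 natural killer cell-like WT cell.

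Lyve1, Gas6 and Maf were mostly RNA of other cells. A cluster of 25 IP cells led by Nts, Mmrn1 and Cldn5, with the lymphatic genes Ccl21a, Flt4 and Reln also among its leading genes, held 773 of 856 Lyve1 UMIs (90.3%), at 2048 CPM (1906 to 2198). Mrc1 was at 135 CPM in that cluster (101 to 178) and seen in 10 of its cells. Gas6 was at 618 CPM in 37 mesothelial-like IP cells (582 to 657), at 383 CPM in 99 cells of an unnamed cluster of low depth led by Fmo2 and C7 (313 to 465), and at 184 CPM in ASC-like cells (175 to 192). Mesothelial-like and ASC-like cells held 33.3% and 58.5% of its IP UMIs, that cluster 3.28% and the gate 2.65%. Maf was at 591 CPM in the cluster led by Nts and Mmrn1, at 527 CPM in a cluster of 46 IP cells led by γδ T cell receptor genes, at 287 CPM in mesothelial-like and 266 CPM in ASC-like cells, and at 11.5 CPM in B cell-like cells, and the gate held 3.36% of its UMIs.

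**Figure D5:**
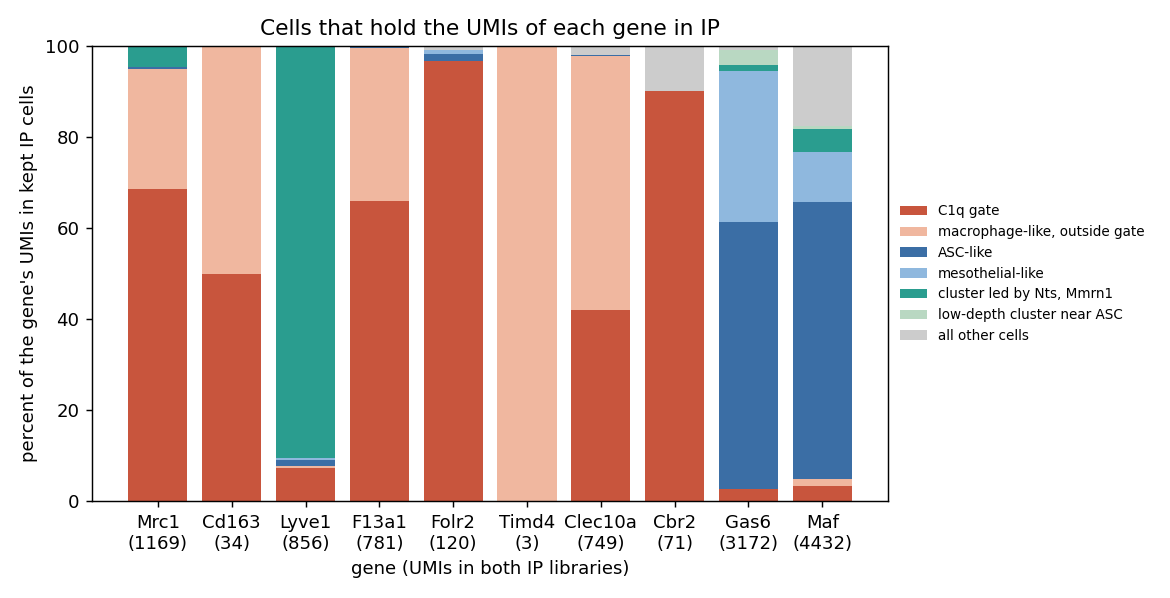
Percent of each member's UMIs in kept IP cells that lay in the C1q gate, in macrophage-like cells outside it and in other clusters, with the total UMIs in brackets. Macrophage-like cells hold nearly all UMIs of Mrc1, Cd163, F13a1, Folr2, Timd4 and Clec10a, and few of those of Lyve1, Gas6 and Maf.

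In SC tissue the members were rare in macrophage-like cells too. The 23 WT SC and 10 KO SC macrophage-like cells outside the gate had medians of 12657 and 13225 UMIs, and at 2000 UMIs 7 of 20 and 1 of 9 of them had at least 1 member. All SC libraries together held 20 Mrc1, 46 F13a1 and 30 Clec10a UMIs in kept cells, of which 13, 30 and 28 lay in these cells. At that depth none of them had 3 members.

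Other genes of macrophage states were read from lists in the same gate cells. Of 22 further resident macrophage genes, 16 were compared, and 12 were at least 2-fold higher and 1 (Pf4) lower in KO, where 12.5% and 11.5% of all genes were, with a median log2 ratio of 1.40. These too were carried by the leading KO cell, which held 71.4% of the KO Selenop UMIs, 90.9% of Ccl7 and all 35 of Cd5l. Without the leading cells 2 of 12 were higher and none lower, where 11.9% and 12.5% of all genes were, and the median was 0.43. Over all macrophage-like cells 5 of 17 were higher and 1 lower, where 5.79% and 5.08% of all genes were, and the median was 0.54. Of 18 genes of lipid-associated macrophages, 15 were compared, with 4 higher, 5 lower (again against 12.5% and 11.5% of all genes) and a median of -0.46. Lpl, lipoprotein lipase, was at 818 CPM in WT against 47.3 in KO, a log2 ratio of -4.01 (-5.43 to -3.06), and the fatty acid transporter Cd36 at 875 and 149 CPM. Of the 22 KO Cd36 UMIs, 95.45% lay in 1 cell. The 4 higher genes were Trem2 at 161 and 378 CPM, a log2 ratio of 1.24 (0.76 to 1.68), Ctsd at 2.03, Ctsb at 1.385 and Spp1 at 5.12. In KO, 1 cell held 67.6% of the Ctsd UMIs, 1 held 74.8% of Ctsb and 1 held all 154 of Spp1. Without the leading cells 7 of the 15 were lower and none higher, against 12.5% and 11.9% of all genes, with a median of -0.69. Over all macrophage-like cells 3 were lower and 1 higher, against 5.08% and 5.79% of all genes, with a median of -0.42. Genes of monocyte-derived and inflammatory macrophages had a median of -0.48, with 4 of 11 above 0. By at least 2-fold, 3 were lower and none higher, against 11.5% and 12.5% of all genes. Cxcl2 was at -1.12 (-1.29 to -0.96), while Itgam was at 0.97 (0.49 to 1.41) and Ccr2 at 0.20 (-0.10 to 0.49). Without the leading cells 4 were lower and 1 higher, against 12.5% and 11.9% of all genes. Over all macrophage-like cells 4 of 14 were lower and 2 higher, against 5.08% and 5.79%. Class II genes had a median of -0.07 with H2-Aa at 7420 CPM in both.

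Among partners and paralogues of the members, 10 of 18 genes were compared, and 2 were at least 2-fold higher and none lower, near the 12.5% and 11.5% of all genes. Mertk, a receptor for Gas6, was at 35.8 CPM in WT against 169 CPM in KO, a log2 ratio of 2.24 (1.43 to 3.02), and was seen in 7 of 53 and 5 of 10 cells. Axl, also a Gas6 receptor, was at 110 and 135 CPM, a log2 ratio of 0.33 (-0.47 to 1.0). Tek, which encodes Tie2, had no UMI in the gate. GFPcds, the reporter switched on by the Cre, was seen in 33 of 53 WT gate cells and 4 of 10 KO gate cells, and in 32 of 48 and 17 of 52 IP T cell-like cells. Genes induced by tissue dissociation were higher in KO gate cells, with 11 of 12 above 0, a median of 0.72 and Fos at 1.65 (1.46 to 1.83). The median over all genes was 0.021. The median of the dissociation genes was 0.67 without the leading cells. Over all macrophage-like cells it was 0.19, with none of these genes past 2-fold, where 5.79% of all genes were higher and 5.08% lower by that much. Their part in the members' differences was not tested.

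Genes most like the members were sought as those with the largest ratio between gate cells with at least 3 members and gate cells with none at 2000 UMIs. In WT IP there were 8 and 13 such cells, at medians of 19000 and 15462 UMIs. KO IP had no cell without a member, so the ranking could be made in WT alone. Among 1494 genes with at least 100 UMIs, the leading ones were Psd3 (818 against 28.6 CPM, in 7 of 8 cells against 4 of 13), Pf4 (1208 against 63.0 CPM, in 7 against 2), Timp2 (645 against 40.1 CPM, in 7 against 4), Cd63, Serpinb6a and Selenop (3195 against 326 CPM, in 8 against 10). The leading cell held 60.8% of the Pf4 UMIs and 80.3% of the Serpinb6a UMIs of the 8 cells, and 28.1% of Psd3. In KO, Timp2 was at 1304 CPM in the 5 cells with at least 3 members and 193 CPM in the other 4, while Pf4 was at 145 and 140 CPM.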

How the data were processed

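Cells of 4 AT libraries were profiled with Chromium 3' v3 chemistry. The labels speak of dissected cells and of a nuclei suspension. The authors deposited raw UMI counts per gene and barcode, with Cell Ranger 7.0.0 in the file headers, and the submitters' processing notes name Cell Ranger, STAR 2.6 and mm10. Such counts can lose or misplace reads of closely similar genes. The use of intronic reads is not given in the sources used here.

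The deposited tables held 4927 barcodes and 49915547 UMIs (10015201 to 15533961 per library). Kept barcodes had 200 or more genes and no more than 25% mitochondrial UMIs, and 17 doublets called by Scrublet (scanpy 1.11.5, expected rate 5%) were removed, or 0.411%, so doublets may remain. The 4119 cells were clustered together (2000 variable genes, 30 components, 15 neighbours, Leiden resolution 1) without the members, C1q, reporters, sex genes, Tert and mitochondrial genes. Clusters were named from markers, with at least 3 needed, and 6 of 24 stayed unnamed. Tert, the targeted gene, had 3, 2, 8 and 9 UMIs in kept cells of WT SC, KO SC, WT IP and KO IP, too few to check the labels.

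UMIs were summed over cells, scaled to CPM and compared as log2 ratios after adding 0.5 UMI, with exact Poisson, Clopper-Pearson or conditional binomial intervals. The interval of the difference in shares joined the bounds of both. The log2 ratio understates the change of low genes. Shares were also taken after thinning each cell once to 2000 UMIs. Named genes were the members, and in each list the 3 with most UMIs and the 3 with the largest log2 ratio of at least 50 UMIs. Other genes named were chosen after their values were seen. The scripts were tested on simulated data. Members, lists and comparisons were chosen with earlier results of these data known.

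Python 3.11.15, numpy 2.4.6, scipy 1.17.1 and pandas 2.3.3 were used. Promoter windows came from RefSeq (GRCm38.p6). 15 alternatives were planned, and 3 other sets of cells, the removal of shared barcodes and the WT-only ranking of similar genes were added after the data were seen. 1 gene of the lists is not reported here.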

Additional observations from a re-analysis of the deposited data

How the results depend on the processing

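The members' median log2 ratio, the count at or past 2-fold and the share of cells with 3 members came from 10 KO and 53 WT cells of 1 library each, so animals, dissociation and genotype cannot be told apart. 3 settings were added after the data were seen. Without the leading cell of each library the median was 0.37 and the count 3. Over all macrophage-like cells the median was 0.11 and Clec10a turned to 0.11. With the gate on Adgre1, Csf1r and Cd68 kept to the macrophage-like cluster, the median was 0.21 and Clec10a turned to 0.15. Among the planned settings, the gate on Adgre1, Csf1r and Cd68 in any cell, which took in 14 mesothelial-like KO cells, turned the median to -1.19, Mrc1 to -1.19, F13a1 to -1.08 and Cbr2 to -0.60, and raised the count to 8. Counting cells with at least 5 members turned the difference in share to -3.85 percentage points. Without thinning that difference was 3.96 points, against 40.2 at 2000 UMIs, 8.54 over all macrophage-like cells and 13.3 in macrophage-like cells gated on Adgre1, Csf1r and Cd68 (6.0 with that gate in any cell). Further planned settings were the stricter C1q gate, gene, mitochondrial, lineage and doublet filters, weighting each cell alike, median-of-ratios scaling, 1 added UMI, no minimum count, thinning to 4000 UMIs and a cut of at least 1 member. Where they apply, the median stayed between 0.488 and 1.051. Those are the medians of the members' lower and upper bounds and not an interval of the median. The difference in share stayed within 3.55 to 72.1 points, a wide interval that also holds the 3.96 points without thinning. The count stayed within 1.5 times. No paired analysis was possible because each group was 1 library.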
